A study of Homo sapiens with 8 samples.

Results

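The 7 genes described here belong to the cholesterol pathway, and they were taken by symbol from a table of 47591 genes. HMGCS1, IDI1, FDFT1, SQLE and DHCR7 encode enzymes that build cholesterol. SREBF2 and INSIG1 encode regulators of those enzymes and of the uptake of lipoprotein cholesterol. All 7 were found in the table, and all passed the minimum mean level of 10 normalized counts set for testing.

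RNA was sequenced from SH-SY5Y cells, a human neuroblastoma (NB) line, in 3 libraries of G2, 3 of SCR and 2 of WT. G2 was made with CRISPR/Cas9 and a guide RNA against PRPF40B, which encodes a splicing factor. SCR received the same machinery with a scrambled control guide, and WT was not edited. Edited colonies were raised by limiting dilution, so differences between single lines cannot be told apart from differences between their founder cells. SCR and G2 were kept in puromycin and WT was not, so in SCR/WT and G2/WT the drug and the line cannot be told apart. All 3 lines grew in medium with fetal bovine serum, which supplies lipoprotein cholesterol. The labels call the replicates biological but do not say how their cultures were separated. The p-values therefore measure the spread between these libraries of single lines, which may be partly technical.

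Cells make cholesterol from acetyl-CoA through the mevalonate pathway. Its early steps give isoprenoid units, which are joined to squalene and then closed and trimmed to sterols. The transcription factor SREBP2, the product of SREBF2, raises transcription of nearly all of these enzymes when membrane sterol is low. When sterol is plentiful, the INSIG1 protein holds SREBP2 and its escort in the endoplasmic reticulum. INSIG1 is itself a target of the factor, so its mRNA is a common readout of SREBP2 activity. Neural cells can make cholesterol for their growing membranes themselves.

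SREBP2 binds short sterol regulatory elements, often next to a CCAAT box, where the factor NF-Y binds. Promoter windows of the 250 bases before each start site were read from RefSeq (GRCh38.p14) and searched on both strands for TCACNCCA, TCACGTGA, CCAAT and GGGCGG. HMGCS1, IDI1, DHCR7, INSIG1 and SREBF2 matched an entry, while SQLE and FDFT1 did not. The stretches below are shown because these 4 genes cover the range of responses in the data, from INSIG1, which differed most between lines, to SREBF2, which differed least. They are cut before any base that GENCODE 44 annotates as untranslated region of the gene, and capitals mark matches to the first 3 motifs (ATTGG is CCAAT on the other strand). They lie at chr7:155297628-155297775 (plus strand) for INSIG1, chr22:41832855-41833104 (plus) for SREBF2, chr5:43313513-43313662 (minus) for HMGCS1 and chr11:71448436-71448643 (minus) for DHCR7.
INSIG1: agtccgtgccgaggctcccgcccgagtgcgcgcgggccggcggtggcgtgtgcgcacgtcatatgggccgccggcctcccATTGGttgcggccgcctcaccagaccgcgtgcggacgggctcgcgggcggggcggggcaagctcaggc
SREBF2: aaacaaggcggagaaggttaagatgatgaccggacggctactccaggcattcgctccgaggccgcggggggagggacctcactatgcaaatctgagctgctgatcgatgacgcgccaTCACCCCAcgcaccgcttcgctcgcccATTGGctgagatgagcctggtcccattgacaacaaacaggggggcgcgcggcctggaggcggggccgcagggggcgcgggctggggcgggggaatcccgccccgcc
HMGCS1: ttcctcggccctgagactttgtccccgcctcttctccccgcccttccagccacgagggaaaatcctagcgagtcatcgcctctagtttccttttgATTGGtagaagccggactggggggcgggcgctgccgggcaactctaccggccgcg
DHCR7: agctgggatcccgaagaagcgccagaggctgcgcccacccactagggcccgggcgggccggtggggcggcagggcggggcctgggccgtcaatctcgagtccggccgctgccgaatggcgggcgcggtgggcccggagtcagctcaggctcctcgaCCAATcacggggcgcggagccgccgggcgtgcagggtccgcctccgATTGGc

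The SREBF2 window held TCACCCCA 133 bases before the start site, with a CCAAT box on the other strand 106 bases before it. In the INSIG1 window, TCACGTGA stood 56 bases before the start, beyond the stretch shown, and a CCAAT box stood 170 bases before it. Of all 35116 RefSeq windows, 3.20% held TCACNCCA and 0.854% held TCACGTGA. By gene, TCACNCCA occurred in 1 of the 5 matched genes and in 2 of the 16 matched synthesis genes. TCACGTGA occurred in 1 of the 5 and in 0 of the 16. The windows of HMGCS1, IDI1 and DHCR7 held neither. CCAAT occurred in at least 1 window of all 5 matched genes and of 13 of the 16 matched synthesis genes, against 37.0% of all 27305 genes. GGGCGG, the core of the Sp1 box, also occurred in all 5 and in 46.2% of all genes. TCACCCCA and the CCAAT boxes do not overlap in the stretches shown, and a match is a description of the letters only.

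PRPF40B, the targeted gene, checked the labels. Its normalized counts were 840.2, 841 and 918 in G2, 1686, 1672 and 1669 in SCR, and 1972 and 1668 in WT. It was lower in G2 than in SCR (log2 fold change -0.95, adjusted p = 7.4e-07) and than in WT (-1.07, adjusted p = 7.9e-07), while SCR and WT overlapped. The libraries held between 59804395 and 81080747 recovered counts. WT stood apart in composition, since ribosomal RNA entries made up 4.96% and 4.75% of its 2 libraries and 0.384% to 0.587% of the other 6. Setting all libraries to the same total moved the median of all genes by -0.09 in G2/SCR, 0.18 in G2/WT and 0.28 in SCR/WT on the log2 scale. With ribosomal RNA genes left out of the total, these shifts were -0.09, 0.12 and 0.21.

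The study's own thresholds, a change of 1.5-fold or more and an unadjusted p up to 0.05, defined a called gene, here in limma on log2(normalized count + 1). A second rule took any fold change with a p of up to 0.05 after Benjamini-Hochberg adjustment over the 18947 genes tested. Many genes differed between these lines, so the share of all genes passing is given once for each rule and comparison. The counts of the longer lists read against the same shares, which hold for the main scaling only. At the same total, the medians of all genes were -0.10 in G2/SCR, 0.19 in G2/WT and 0.29 in SCR/WT. Counts at the same total read against these medians. The comparisons share libraries in pairs, so they are not independent of each other.

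In G2/SCR, IDI1, FDFT1, SQLE and INSIG1 were higher in G2 and HMGCS1 was lower, by modest amounts. None of the 7 reached both call thresholds (0 of 7, against 26.9% of all genes), although SQLE came close at 1.498-fold. With both thresholds, DESeq2 called 0 and edgeR called 1 (SQLE). By unadjusted p at any fold change, 6 of 7 passed in limma, against 55.0% of all genes, as did 7 in DESeq2 and 6 in edgeR. By adjusted p, 4 of 7 were higher (background 25.7%) and 1 was lower (background 23.4%). Under each of 3 other scalings, 4 were higher and 3 lower, with DHCR7 and SREBF2 joining HMGCS1, and the lower count was 1 to 2 with single libraries left out.

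In SCR/WT, 6 of the 7 genes were lower in SCR and none was higher, although neither line carries the PRPF40B edit. The background by adjusted p was 18.3% lower and 17.0% higher. IDI1 and INSIG1 also passed the fold threshold (2 of 7, against 16.3% of all genes). In G2/WT, HMGCS1, IDI1, DHCR7 and INSIG1 were lower (4 of 7, background 25.4%) and none was higher (background 27.2%). INSIG1 alone passed the fold threshold there (1 of 7, against 29.9%), with HMGCS1 just under 1.5-fold at 1.497. At the same total, 4 were lower and 1 higher in both of these comparisons.

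**Figure D1:**
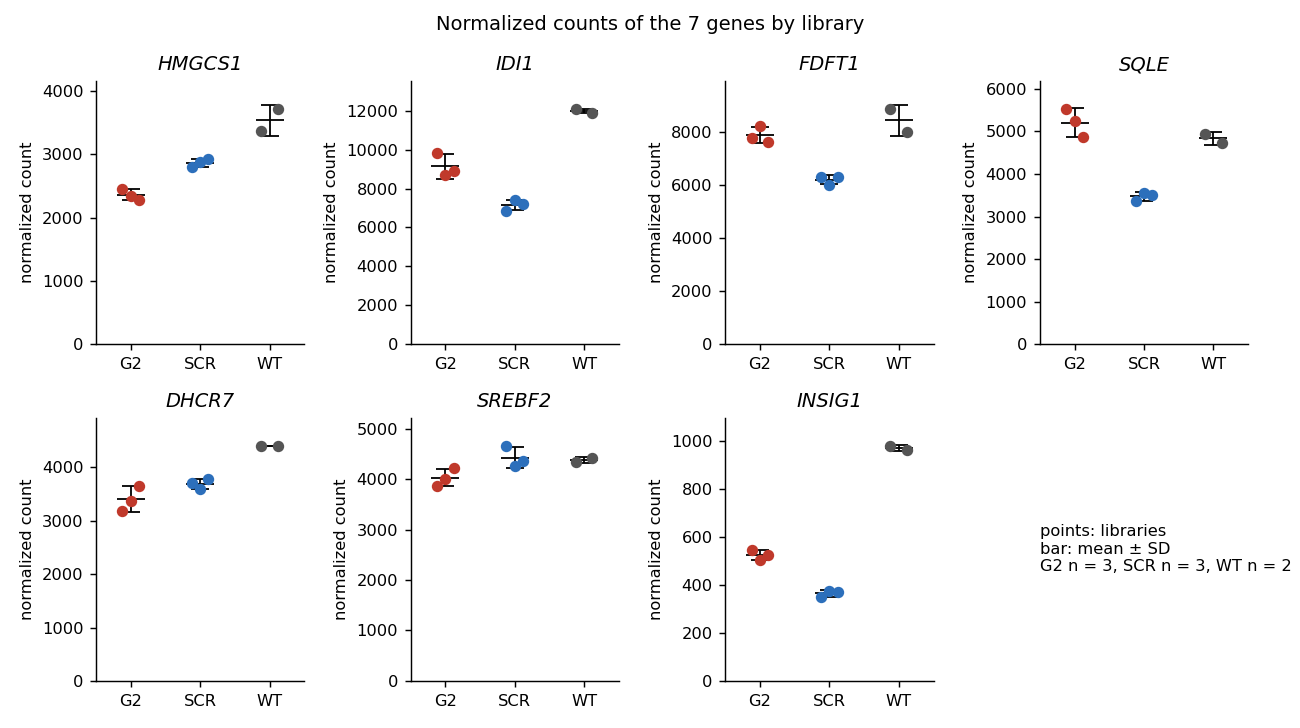
Normalized counts (y axis, from 0) of the 7 genes in each library of G2 (n = 3), SCR (n = 3) and WT (n = 2), with bars for the mean ± SD. INSIG1 and IDI1 are highest in WT and lowest in SCR, SQLE and FDFT1 are low in SCR only, and SREBF2 spans the narrowest range relative to its level.

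HMGCS1 encodes the cytosolic synthase that makes HMG-CoA, an early step of the pathway (chr5:43287470-43313440, hg38). Its normalized counts were 2457, 2345 and 2282 in G2, 2799, 2880.2 and 2923 in SCR, and 3362 and 3714 in WT. The 3 lines did not overlap, with G2 lowest and WT highest. HMGCS1 was 1.21-fold lower in G2 than in SCR (log2 fold change -0.28 ± 0.06 SE, adjusted p = 0.0023) and 1.497-fold lower than in WT (-0.58 ± 0.07, adjusted p = 2.0e-05). SCR was 1.23-fold lower than WT (-0.30 ± 0.07, adjusted p = 0.0050), a difference that shrank to -0.02 (adjusted p = 0.82) when libraries were set to the same total.

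IDI1 encodes the isomerase that converts isopentenyl diphosphate to its reactive isomer (chr10:1039152-1056704). Its normalized counts were 9853, 8673 and 8901 in G2, 6855, 7395 and 7208 in SCR, and 12079 and 11909 in WT. The lines were again separate, but here SCR was lowest and G2 stood between SCR and WT. IDI1 was 1.28-fold higher in G2 than in SCR (0.35 ± 0.06, adjusted p = 3.5e-04), 1.31-fold lower in G2 than in WT (-0.39 ± 0.07, adjusted p = 3.3e-04) and 1.68-fold lower in SCR than in WT (-0.75 ± 0.07, adjusted p = 7.9e-06). WDR37 overlaps IDI1 in the table, at means of 1767 in G2, 2344 in SCR and 1935 in WT, and the strand setting of the counting is not given in the sources used here.

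FDFT1 encodes squalene synthase, the first step committed to sterols (chr8:11795573-11839308). It had 7768, 8208 and 7624 normalized counts in G2, 6297, 5987 and 6311 in SCR, and 8845 and 8002 in WT. SCR lay below every other library, and G2 overlapped WT. FDFT1 was 1.27-fold higher in G2 than in SCR (0.34 ± 0.06, adjusted p = 3.3e-04) and 1.36-fold lower in SCR than in WT (-0.44 ± 0.06, adjusted p = 2.8e-04). The G2/WT difference was -0.10 with a 95% interval from -0.24 to 0.04 (adjusted p = 0.22), and it reached -0.17 (adjusted p = 0.034) without WT replicate 2.

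SQLE encodes squalene epoxidase, a rate-limiting step after squalene (chr8:124998497-125022283). Its normalized counts were 5521, 5239 and 4861 in G2, 3358, 3550.3 and 3510 in SCR, and 4948 and 4722 in WT. As with FDFT1, SCR was apart and G2 overlapped WT. SQLE was 1.498-fold higher in G2 than in SCR (0.58 ± 0.06, adjusted p = 6.9e-06), the largest rise among the 7 genes, and 1.39-fold lower in SCR than in WT (-0.48 ± 0.07, adjusted p = 2.5e-04). G2 and WT differed by 0.11 (interval -0.04 to 0.25, adjusted p = 0.22), and by 0.29 (adjusted p = 0.0034) with libraries at the same total.

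DHCR7 encodes the reductase that turns 7-dehydrocholesterol into cholesterol (chr11:71428193-71448424). It had 3186, 3366 and 3658 normalized counts in G2, 3701, 3594 and 3785 in SCR, and 4400.4 and 4395 in WT. WT was above both other lines, which overlapped. DHCR7 was 1.29-fold lower in G2 than in WT (-0.37 ± 0.07, adjusted p = 6.8e-04). SCR was 1.19-fold lower than WT (-0.25 ± 0.07, adjusted p = 0.014), a difference that turned to 0.02 (adjusted p = 0.80) at the same total and had an adjusted p of 0.052 without SCR replicate 2. G2/SCR gave -0.12 (interval -0.25 to 0.01, adjusted p = 0.13), -0.17 (adjusted p = 0.049) without G2 replicate 3, and -0.21 under each of the 3 other scalings (adjusted p = 0.011 to 0.017).

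INSIG1, the sterol-sensing anchor (chr7:155297838-155310235), varied most. Its normalized counts were 548, 506 and 527 in G2, 350.1, 377 and 373 in SCR, and 981 and 962 in WT. No 2 lines overlapped. INSIG1 was 1.44-fold higher in G2 than in SCR (0.52 ± 0.08, adjusted p = 2.3e-04), 1.84-fold lower in G2 than in WT (-0.88 ± 0.09, adjusted p = 7.3e-06) and 2.65-fold lower in SCR than in WT (-1.40 ± 0.09, adjusted p = 8.9e-07).

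SREBF2, which encodes the transcription factor (chr22:41833105-41907306), differed least between the lines in the main scaling. Its normalized counts were 3867, 4012 and 4214 in G2, 4659.9, 4261 and 4353 in SCR, and 4333 and 4420.2 in WT. The G2 libraries all lay below those of SCR and WT, at -0.13 (interval -0.26 to -0.01, adjusted p = 0.075) and -0.12 (-0.26 to 0.02, adjusted p = 0.14). The adjusted p in G2/SCR was 0.040 when only these 2 lines were fitted, 0.040 without WT replicate 1 and 0.041 without WT replicate 2. It was 0.031 with DESeq2 and 0.044 with edgeR, both on recovered counts, which are not single fragments. Under the 3 other scalings the difference was -0.22 to -0.23 (adjusted p = 0.0058 to 0.010). SCR/WT gave 0.01 (-0.13 to 0.16, adjusted p = 0.89), and 0.29 (adjusted p = 0.0056) at the same total. The antisense entry SREBF2-AS1 overlaps the gene, with a mean of 12.3 in G2, 37.3 in SCR and 22.5 in WT. These values concern mRNA only, and the cleavage that releases active SREBP2 was not measured.

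**Figure D2:**
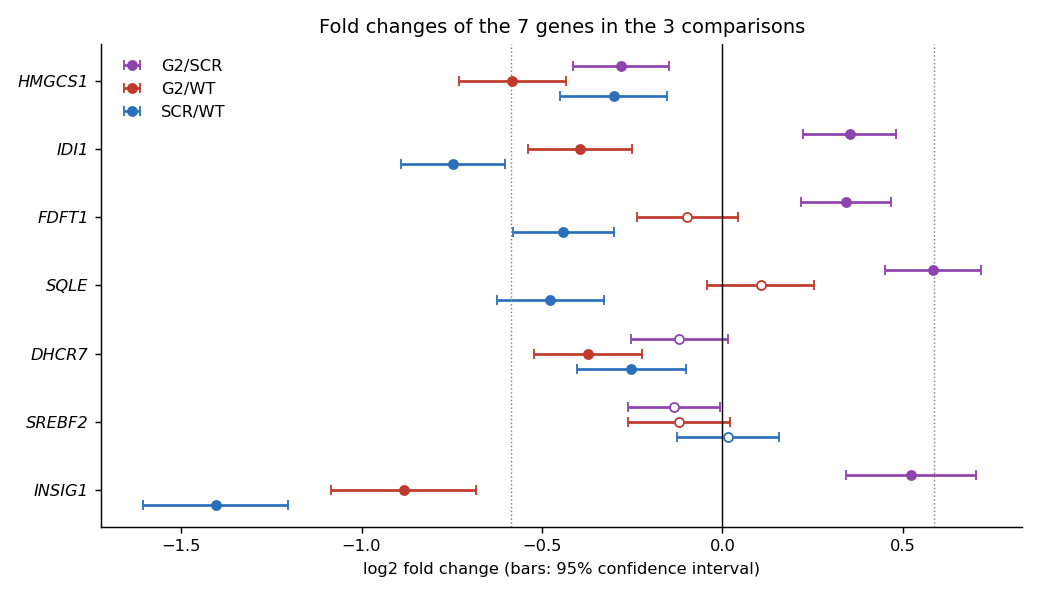
Log2 fold changes (x axis) with 95% confidence intervals for the 7 genes in G2/SCR, G2/WT and SCR/WT. Filled points have an adjusted p of at most 0.05, and dotted lines mark a 1.5-fold change. INSIG1 lies farthest from 0, at -1.40 in SCR/WT, while the values of SREBF2 lie between -0.13 and 0.01.

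Divided by the joined length of all their GENCODE 44 exons, the genes kept a similar order in each line. That length covers every annotated transcript, and reads were counted on another annotation, so the order between genes is approximate. IDI1 led with 2129 normalized counts per kb in G2, 1666 in SCR and 2793 in WT. FDFT1 followed with 1549, 1220.1 and 1658, and SQLE with 1210, 807 and 1123. DHCR7, SREBF2 and HMGCS1 came next between 356 and 639, and their order changed between lines. INSIG1 was lowest with 144 in G2, 100.4 in SCR and 266 in WT.

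The genes fell into partly different profiles across the 8 libraries, which share their lines and depth, so the correlations are descriptions only. IDI1 and INSIG1 were closest, with a Pearson r of 0.98, followed by SQLE and FDFT1 with 0.90, IDI1 and FDFT1 with 0.88, and HMGCS1 and DHCR7 with 0.87. SQLE and SREBF2 ran in opposite directions (r = -0.72). Outside the pathway lists, the 5 genes most like the mean profile of the 7 were SRSF4 and SRSF7, which encode splicing factors, GLO1, a glyoxalase, SUMO2, a protein modifier, and RRM2, a ribonucleotide reductase subunit. Their r ran from 0.994 to 0.997 over 8 libraries. They were picked for the highest r at a mean of at least 100 normalized counts, so values near 1 follow from the choice. That mean was reached by 13065 genes, before listed genes and those without a symbol were set aside.

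The other enzymes of cholesterol synthesis were mostly lower in SCR as well. Of 14 further enzymes, 10 were lower in SCR than in WT and none was higher, with a median log2 fold change of -0.45, against 0.01 over all genes. With libraries at the same total, 5 were lower, and the median was -0.18 while that of all genes was 0.29. In G2/WT, 10 were lower and 1 was higher (median -0.40), or 2 without WT replicate 2. In G2/SCR, 6 were higher and 4 lower (median 0.11), and the lower count ran from 2 to 4 as single libraries were left out, being 2 without G2 replicate 1, G2 replicate 2 or SCR replicate 3. The G2/SCR split turned to 4 higher and 6 lower at the same total (median 0.02), with or without ribosomal RNA genes, and to 4 and 5 at the same upper quartile. In G2/WT, 2 were higher and 7 lower at the same total.

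Laid out in pathway order, the G2/SCR values changed sign along the path, a pattern noticed after the values were seen. MVK, MVD and PMVK, the enzymes between mevalonate and isopentenyl diphosphate, lay at -0.47 (adjusted p = 4.8e-04), -0.48 (adjusted p = 0.0022) and -0.21 (adjusted p = 0.015), like HMGCS1. From IDI1 to MSMO1 the values were positive. FDPS lay at 0.16 (adjusted p = 0.048) and LSS at 0.22 (adjusted p = 0.0067). CYP51A1 lay at 0.28 (adjusted p = 0.0023) and MSMO1 at 0.23 (adjusted p = 0.0023). At the same total, FDPS lay at 0.07 (adjusted p = 0.29) and LSS at 0.13 (adjusted p = 0.0998). Later steps were mixed.

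Among the later enzymes, LBR, a nuclear envelope protein with sterol reductase activity, had 4564 ± 74.0 normalized counts in G2 (SD, n = 3), 3089.7 ± 52.0 in SCR (n = 3) and 4381 ± 385 in WT (n = 2). It was higher in G2 than in SCR (0.56, adjusted p = 7.5e-06) and lower in SCR than in WT (-0.50, adjusted p = 1.5e-04). TM7SF2, the other reductase of that step, was instead higher in G2 than in both SCR (0.61, adjusted p = 2.7e-04) and WT (0.57, adjusted p = 9.7e-04). EBP, a sterol isomerase, was lower than WT in both G2 (-1.04, adjusted p = 7.3e-07) and SCR (-0.83, adjusted p = 1.8e-05).

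**Figure D3:**
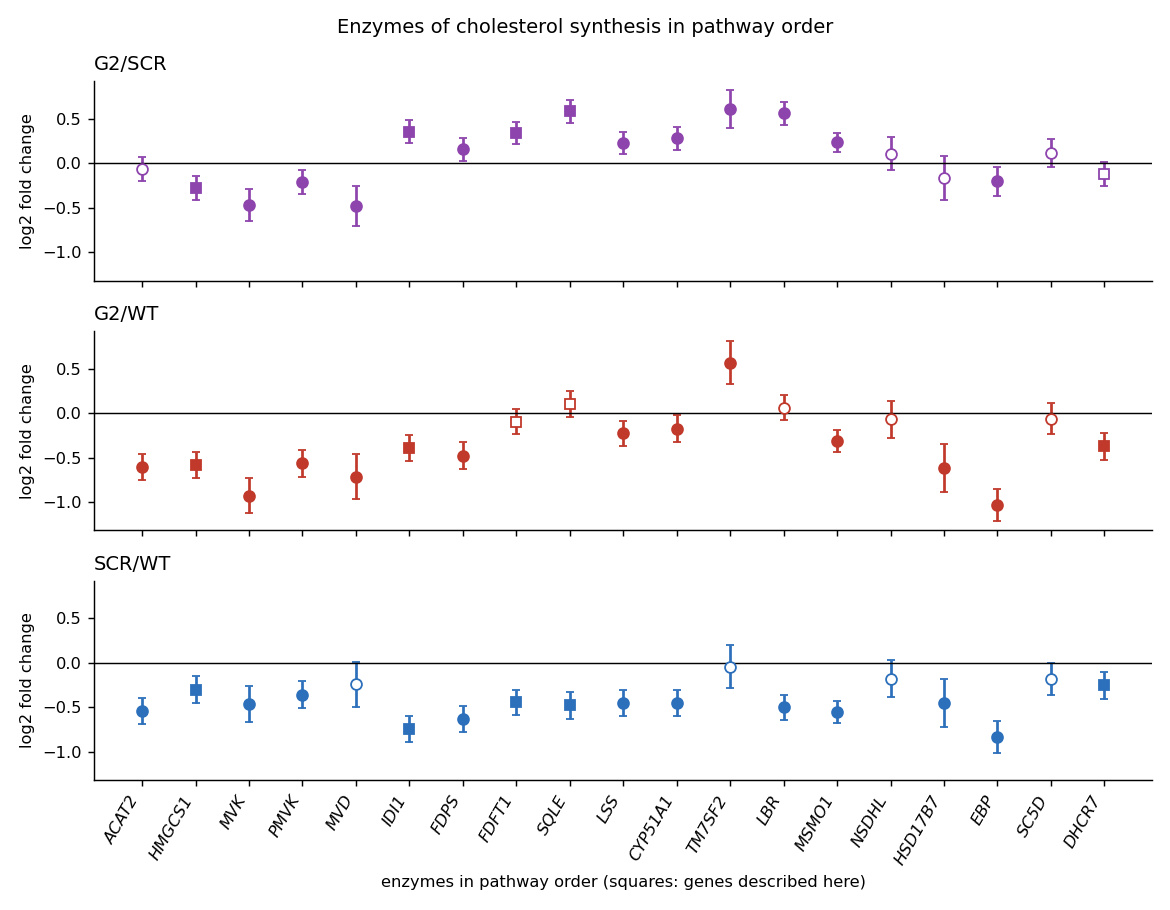
Log2 fold changes (y axis) with 95% confidence intervals for 19 enzymes of cholesterol synthesis in pathway order (x axis), 1 panel for each comparison. Squares are the 5 enzymes among the 7 genes and filled marks have an adjusted p of at most 0.05. In SCR/WT all 19 points lie below 0, while in G2/SCR the points of HMGCS1, MVK, PMVK and MVD lie below 0 and those from IDI1 to MSMO1 above it. In G2/SCR the points of ACAT2, HSD17B7, EBP and DHCR7 also lie below 0.

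Genes that regulate the pathway did not move as one group. Of 12 besides SREBF2 and INSIG1, 5 were higher and 4 lower in G2/SCR. The counts were 7 and 4 in G2/WT, against 3 and 5 in SCR/WT. At the same total the SCR/WT split turned to 6 higher and 2 lower (6 and 3 without ribosomal RNA genes), and the G2/SCR split to 4 and 5. The median of all genes in SCR/WT was 0.29 at the same total. The lower count in G2/SCR was 1 without G2 replicate 2 or SCR replicate 1, and the higher count in SCR/WT was 1 without SCR replicate 1, SCR replicate 2 or WT replicate 1. ERLIN1, an endoplasmic reticulum protein that binds the SREBP machinery, had 2830 ± 28.9 normalized counts in G2, 1346 ± 136 in SCR and 1884 ± 131 in WT, and it was higher in G2 than in SCR (1.08, adjusted p = 2.9e-07). RNF139, a ubiquitin ligase of sterol-regulated protein degradation, was higher in G2 than in SCR (0.77, adjusted p = 2.6e-07) and than in WT (0.54, adjusted p = 1.5e-05). SREBF1, the paralog that drives fatty acid synthesis, was lower than WT in both G2 (-1.04, adjusted p = 1.7e-06) and SCR (-0.81, adjusted p = 4.7e-05), unlike SREBF2.

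The next list held genes of lipoprotein uptake and of sterol transport inside the cell. Of 13, 7 were higher and 3 lower in G2/SCR (median 0.37). The counts were 7 and 2 in G2/WT (median 0.40), against 3 and 1 in SCR/WT. At the same total, 7 were higher and 0 lower in SCR/WT (median 0.33), close to the median of 0.29 over all genes at that scaling. The lower counts in G2/SCR and G2/WT reached 2 and 1 when single libraries were left out, in the second case without G2 replicate 1 or G2 replicate 2, and in SCR/WT the higher count was 1 without SCR replicate 3 and the lower count 3 without WT replicate 1. NPC2, which hands cholesterol out of lysosomes, had 16855 ± 710.2 normalized counts in G2, 6000.3 ± 341 in SCR and 5386 ± 534 in WT. It was higher in G2 than in SCR (1.49, adjusted p = 3.7e-09) and WT (1.65, adjusted p = 4.5e-09). GRAMD1B, which carries sterol from the plasma membrane to the endoplasmic reticulum, was higher in G2 than in both as well (0.67, adjusted p = 1.5e-06, and 0.60, adjusted p = 1.1e-05).

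Marker genes of cell state differed between the lines as well. Of 10 adrenergic NB markers, 9 were lower and 1 higher in G2/SCR. The counts were 9 and 1 in G2/WT, against 6 and 1 in SCR/WT, where the same total gave 2 lower and 3 higher (3 and 2 without ribosomal RNA genes). Their summed normalized count ran from 95109 to 103283 in G2, from 187691 to 199964 in SCR and from 211817 to 227227 in WT. Of 11 mesenchymal markers, 10 were tested, of which 9 were higher and 1 lower in G2/SCR. The counts were 8 and 1 in G2/WT, against 4 and 2 in SCR/WT. In SCR/WT they were 7 and 0 at the same total, where the median of all genes was 0.29. Their sum ran from 354147 to 359277 in G2, from 134852 to 142182 in SCR and from 102973 to 117445 in WT. VIM was the largest part of it, with means of 214430 in G2, 85197 in SCR and 59181 in WT. TWIST1 went the other way, with means of 21105 in G2 and 27740 in SCR, and FN1 was under 10 in every library. The part of these markers in the cholesterol gene results was not tested. In bulk RNA, fewer cells of a type and less RNA per cell cannot be told apart.

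Genes near SQLE also had a positive median in G2/SCR. The 26 other genes within 5 Mb of SQLE, at a mean of at least 100 normalized counts, had a median log2 fold change of 0.46 there, and 12 of them were above the 0.58 of SQLE. RNF139 (chr8:124474873-124488618) is 1 of these neighbours. In G2/WT the neighbours had a median of 0.44 while SQLE was at 0.11, and in SCR/WT they had -0.10 while SQLE was at -0.48. All 464 chromosome 8 genes at this level had medians of 0.28, 0.27 and -0.02. FDFT1, on the same chromosome, had 5 of its 32 neighbours above it in G2/SCR (median -0.02) and all 32 above it in SCR/WT (median 0.13).

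The 49 neighbours of INSIG1 had a median of 0.30 in G2/SCR, 0.30 in G2/WT and 0.03 in SCR/WT, where all 49 lay above INSIG1. IDI1 likewise lay below all 19 of its neighbours in SCR/WT (median -0.06), and 4 of the 19 lay above it in G2/SCR (median 0.11). HMGCS1 lay below 18 of 21 neighbours in G2/SCR (median 0.18). For DHCR7 and SREBF2, the medians of the 98 and 109 neighbours were between -0.16 and -0.01 in all 3 comparisons. Copy number was not measured, and its part in these values was not tested.

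**Figure D4:**
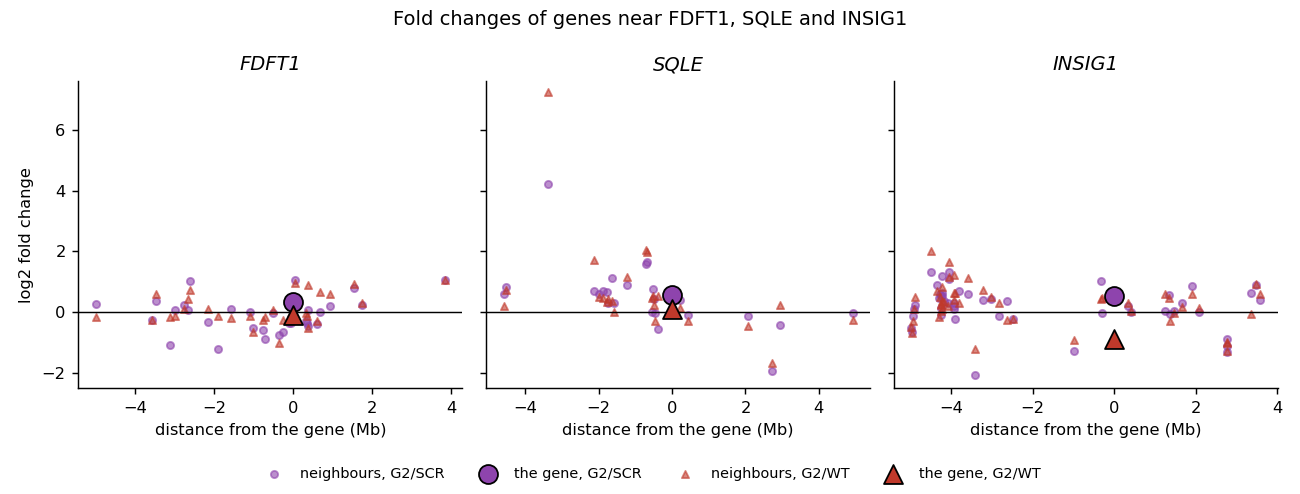
Log2 fold changes (y axis) in G2/SCR (circles) and G2/WT (triangles) of genes within 5 Mb of FDFT1, SQLE and INSIG1 against their distance from the gene (x axis, Mb), with the gene itself as a large outlined mark at 0. In G2/SCR, SQLE at 0.58 lies among neighbours with a median of 0.46, whereas in G2/WT INSIG1 at -0.88 lies below most of its neighbours.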

How the data were processed

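RNA-seq was measured in 8 libraries of SH-SY5Y cells. The authors aligned reads with STAR (hg38), ran featureCounts (Subread 1.5.0) on FAST DB genes and applied DESeq2 size factors. The deposited signal holds these normalized counts for each library, without length scaling or pooling. The strand setting is not given in the sources used here. Every library's values were whole multiples of 1 step in 100.0% of cases (tolerance 0.01), which gave recovered counts. Count tests (DESeq2 1.42.0, edgeR 4.0.16) were run for G2/SCR only, as alternatives. Small recovered counts were multiples of 3 in 67.1% to 71.5% of cases, so they are not single fragments.

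Libraries were grouped by label. The main test was limma 3.58.1 (R 4.3.3) with a variance trend on log2(normalized count + 1), over 18947 genes with a mean of at least 10, 1 mean per line, all 8 libraries in 1 fit, tested on simulated data. Fold changes are on this scale and understate low genes. Adjusted p-values are Benjamini-Hochberg over all genes tested.

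The 7 genes and the lists were chosen with earlier results of these data known. From each list, the 3 genes of lowest p in G2/SCR and the 1 of largest change in SCR/WT were named, besides MVD, PMVK, FDPS, LSS, CYP51A1, MSMO1 and the markers, which were chosen after their values were seen. A few listed genes, and those that took their place under this rule, are not reported here. Alternatives were other pseudocounts, filters, scalings, fold thresholds, fits and libraries left out. Promoter sequences come from RefSeq, and exon lengths from GENCODE 44.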

Additional observations from a re-analysis of the deposited data

How the results depend on the processing

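Of the 7 genes called by the fold threshold, the number in G2/SCR was 1 with edgeR and 5 at a threshold of 1.2, and 0 to 1 with 1 library left out (1 without G2 replicate 3, SCR replicate 2 or SCR replicate 3). In G2/WT it was 2 with the same upper quartile, 4 at 1.2, 0 at 2, and 1 to 2 with 1 library left out (2 without G2 replicate 1 or WT replicate 1). In SCR/WT it was 1 at the same total, 1 at the same total without ribosomal RNA genes, 5 at 1.2 and 1 at 2. The shares of all genes at thresholds of 1.2 and 2 are not given here. The counts at these thresholds therefore have no background and are not a result about the 7 genes. The numbers by adjusted p, 5, 4 and 6, stayed within 1.5 times under all alternatives run. With 7 genes, no rise in G2/SCR or SCR/WT could leave that range, and these numbers ignore direction. At the same total, 4 were higher and 3 lower in G2/SCR, and 1 was higher and 4 lower in SCR/WT. DHCR7 in SCR/WT turned from -0.25 to 0.024 at the same total, where SCR/WT shifts as a whole, and the scaling without ribosomal RNA genes, added after seeing the data, gave -0.04. With 1 WT library left out, limma assumes that the other varies like the remaining libraries. Among named list genes, EBP in G2/SCR lost its adjusted p when any G2 or SCR library was left out (0.062 to 0.126), SREBF1 in G2/SCR lost it without 4 of them (0.099 to 0.154), and ABCG1 in G2/WT lost it without G2 replicate 2 (0.054), without WT replicate 2 (0.14) or at the same total (0.098). NPC2 in SCR/WT gained it without WT replicate 1 (0.014) or at the same total (0.00028), and LBR in G2/WT without WT replicate 2 (0.049) or at the same total (0.021). The cause of these changes was not tested.

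Deviations of same-numbered G2 and SCR libraries, by the numbers in the titles, correlated at -0.013, -0.029 and 0.042. The library names carry other numbers, and a pairing by those was not fitted. With the replicate block, 0, 1 and 2 of the 7 genes were called in G2/SCR, G2/WT and SCR/WT, as without it, and 5059, 5644 and 3057 of all genes. Over all genes in G2/SCR, limma called 5088, DESeq2 4973 and edgeR 5093.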

Other observations

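Genes of sterol efflux and storage differed between the lines in both directions. Of 10 tested, 4 were higher and 2 lower in G2/SCR. The counts were 4 and 1 in G2/WT, against 5 and 1 in SCR/WT. At the same total they were 7 and 0 in G2/WT, also without ribosomal RNA genes, and 5 and 0 in SCR/WT. The medians of all genes at the same total were 0.19 in G2/WT and 0.29 in SCR/WT. The lower count in G2/SCR was 1 without SCR replicate 3, that in G2/WT was 0 without G2 replicate 2 or WT replicate 2, and that in SCR/WT was 2 without SCR replicate 3 or WT replicate 2. SOAT1, which esterifies cholesterol for storage, had 2271 ± 109 normalized counts in G2 (SD, n = 3), 1149.6 ± 36.0 in SCR (n = 3) and 1424 ± 98.0 in WT (n = 2), and it was higher in G2 than in SCR (0.98, adjusted p = 2.1e-07) and WT (0.67, adjusted p = 1.5e-05). NCEH1, a hydrolase of cholesterol esters, was also higher in G2 than in SCR (0.73, adjusted p = 1.6e-05) and WT (1.49, adjusted p = 9.1e-08). The efflux transporter ABCG1 was lower in G2 than in SCR (-1.74, adjusted p = 3.2e-06) and higher in SCR than in WT (1.13, adjusted p = 6.4e-04). ABCA1, the main efflux transporter to lipid-poor particles, was low everywhere, at 37.8 ± 15.2 in G2, 59.5 ± 2.55 in SCR and 3.85 ± 0.174 in WT, and it was higher than WT in both G2 (2.93, adjusted p = 6.0e-05) and SCR (3.64, adjusted p = 3.4e-05), by amounts that depend on the pseudocount at so low a level. Both transporters are known targets of the sterol-activated liver X receptors.

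Genes of fatty acid synthesis, which the SREBF1 product drives, also differed in both directions in G2/SCR. Of 12, 6 were higher and 5 lower in G2/SCR. The counts were 1 and 6 in G2/WT, against 0 and 5 in SCR/WT (1 higher without WT replicate 2), and the lower count in G2/SCR was 3 without G2 replicate 1 or SCR replicate 2. At the same total, 4 were higher and 3 lower in G2/WT and 1 and 2 in SCR/WT. The desaturases FADS1 (0.64, adjusted p = 9.4e-06) and FADS2 (0.39, adjusted p = 3.3e-05) and the acetyl-CoA synthetase ACSS2 (0.47, adjusted p = 4.2e-05) were higher in G2 than in SCR. All 3 were lower in SCR than in WT, at -0.51 (adjusted p = 4.0e-04), -0.60 (adjusted p = 1.0e-05) and -0.47 (adjusted p = 2.6e-04), although FADS1 lost this call at the same total (-0.23, adjusted p = 0.051). PNPLA3, a lipid droplet lipase, was low in every line and higher in G2 than in SCR (1.99, adjusted p = 0.0010).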
